A study of Mus musculus with 27 samples.

Results

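The replication-dependent histone genes are the clustered genes that encode the linker histone H1 and the core histones H2A, H2B, H3 and H4. They were taken as all protein-coding genes whose mouse symbols begin with Hist1h, Hist2h, Hist3h or Hist4h in the GENCODE M21 annotation of mm10, which gave 67 members among 54752 counted genes. The 67 comprise 6 H1, 18 H2A, 18 H2B, 12 H3 and 13 H4 genes. Of these, 54 lie in the Hist1 cluster on chromosome 13, 10 in Hist2 on chromosome 3, 2 in Hist3 on chromosome 11 and 1, Hist4h4, on chromosome 6, and 3 histone-named pseudogenes were left out. The rule uses names only and no measured value enters it, though the members were chosen with earlier results of these data known.

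The study asked how loss of the m6A methyltransferase subunits Mettl3 or Mettl14 changes gene expression in tumors treated with an antibody against PD-1. CT26, a murine colon carcinoma line, received a control, Mettl3 or Mettl14 sgRNA by retrovirus and was grown under the flank skin of BALB/c mice. Tumor RNA was sequenced in 15 libraries, 5 from control, 5 from Mettl3 knockout (KO) and 5 from Mettl14 KO tumors, and 12 further immunoprecipitated or input samples of the 27 in the series were not analysed here. All 3 groups carry a retroviral sgRNA and, per the series' design, anti-PD-1 treatment; the protocols list antibody doses of 200 µg (10 mg per kg) from day 11 to day 23 and also name anti-CTLA-4 and IgG, without saying which tumor received which. The genotype field of the libraries titled Mettl14 KO reads Mettl4. Mouse age and sex, the Cas9 source, and whether the knockout lines were clones or pools are not given, and a tumor also holds host stroma and immune cells, so fewer cells of a type and less RNA per cell cannot be told apart. No label says that the libraries came from separate mice, and the p-values therefore cover only how far these libraries scatter, which may be technical.

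Replication-dependent histone genes are transcribed mainly in S phase, when new DNA has to be packed into nucleosomes. Their short, mostly intronless messages end in a conserved stem-loop in place of a poly(A) tail. The stem-loop is bound by SLBP and cut downstream by a complex that includes the U7 snRNP proteins Lsm10 and Lsm11 and the nuclease Cpsf3, while Npat switches on transcription of the clusters. Some members also give polyadenylated RNA from a downstream site, and a library made from poly(A)+ RNA captures the tailless form poorly.

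The stem-loop is shown because it defines the class and stands where other messages carry a poly(A) tail. A stem-loop was searched as 16 bases, a 6-base arm starting with GG, a 4-base loop starting with TT and the reverse complement of the arm, within 100 bases after the stop codon. It was present in 44 of 67 members, 13 more had no annotated base after the stop codon, and 10 had annotated bases without it. The distance from stop codon to stem-loop ran from 21 to 58 bases with a median of 31. Among 20115 other protein-coding genes with such a window, 8 (0.04%) held it, among them H2afx, which encodes the variant H2A.X. The stem-loop (capitals) with 5 bases on either side is given for members described further on, at least 1 of each family, 5′ to 3′ on the coding strand.
Hist1h1e: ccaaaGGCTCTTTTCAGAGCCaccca
Hist1h1c: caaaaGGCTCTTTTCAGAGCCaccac
Hist2h2ac: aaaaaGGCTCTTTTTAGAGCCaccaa
Hist1h2ae: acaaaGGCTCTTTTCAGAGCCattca
Hist1h2bb: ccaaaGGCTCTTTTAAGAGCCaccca
Hist1h3b: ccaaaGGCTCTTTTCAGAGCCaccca
Hist1h3c: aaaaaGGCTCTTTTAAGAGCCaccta
Hist1h4d: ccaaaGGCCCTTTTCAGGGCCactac
Hist1h4h: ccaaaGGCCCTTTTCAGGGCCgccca
The Hist1h2bb stem-loop lies at chr13:23747203-23747218 (+ strand) and that of Hist1h4d at chr13:23581950-23581965 (+ strand), both in the 3′ UTR of a single exon. The spelling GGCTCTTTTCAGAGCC occurred in 26 members of the H1, H2A, H2B and H3 families and in no H4 gene. H4 genes had their own forms, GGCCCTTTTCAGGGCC in 7, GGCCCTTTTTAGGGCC in 2 and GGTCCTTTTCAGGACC in 2. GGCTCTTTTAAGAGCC occurred in 6 members, among them Hist1h2bb and Hist1h3c, and Hist2h2ac alone had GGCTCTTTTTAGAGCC. The annotated exons ended within 100 bases of the stem-loop in 22 members and ran past that limit in the other 22.

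Promoters are shown as part of the description of the members. Whether their motifs bear on the joint rise and fall across libraries, described further on, was not tested. RefSeq promoters of 300 bases (250 before to 50 after the start, GRCm38.p6) were matched for 61 of 67 members, and 4 motifs were searched on both strands. The octamer ATTTGCAT, known from H2B promoters, was present in 7 of 17 H2A and 6 of 16 H2B promoters and in none of the 6 H1, 10 H3 or 12 H4 promoters, against 1.75% of 27025 promoters. CCAAT was present in every matched H1, H2A, H2B and H3 promoter and in 3 of 12 H4 promoters, against 37.9% of all. TATAAA was found in 35 of 61 members (57.4%) and 14.2% of all promoters. The AAACACA motif, known as the AC box of H1 genes, was found in 5 of 6 H1 promoters and 7.14% of all. In the promoters of Hist1h2bb, the highest H2B gene per length (chr13:23746484-23746783, + strand), and Hist1h1e, the member with the most reads (chr13:23622509-23622808, - strand), the capitals mark these motifs on either strand.
Hist1h2bb: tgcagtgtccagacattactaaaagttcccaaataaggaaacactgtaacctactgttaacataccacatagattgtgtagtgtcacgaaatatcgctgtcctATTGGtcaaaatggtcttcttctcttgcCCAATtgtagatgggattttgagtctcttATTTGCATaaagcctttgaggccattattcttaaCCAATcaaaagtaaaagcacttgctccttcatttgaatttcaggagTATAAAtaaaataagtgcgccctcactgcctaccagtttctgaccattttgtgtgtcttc
Hist1h1e: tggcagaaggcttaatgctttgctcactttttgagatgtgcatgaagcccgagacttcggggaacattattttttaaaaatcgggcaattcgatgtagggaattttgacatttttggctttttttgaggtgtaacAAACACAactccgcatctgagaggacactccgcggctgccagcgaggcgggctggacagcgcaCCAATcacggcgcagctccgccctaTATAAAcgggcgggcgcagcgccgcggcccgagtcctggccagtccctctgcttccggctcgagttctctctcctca
A motif match describes the letters in these windows and is not evidence of binding.

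The libraries held between 4354273 and 20978633 reads on genes. Reads outside genes made up 44.3% to 78.6% of the uniquely aligned reads, with a mean of 54.8% ± 13.9 (SD, n = 5) in control, 68.3% ± 7.16 in Mettl3 KO libraries and 58.5% ± 5.25 in those of Mettl14 KO. Control replicate 1 stood apart from the other 4 controls, with 78.6% of its reads outside genes against 44.3% to 53.8%. The 1457 olfactory and vomeronasal receptor genes, which are not expected to be transcribed in tumors, had 0.988 reads per kb on the RPKM scale, counted over gene reads, in that library and 0.0367 to 0.130 in the other controls. Pooled over the 67 members, reads per kb were 17.2 to 996 times those of the receptor genes. The pooled level was thus above that background in the lowest library too. This does not hold for each member. The median H2A gene averaged 0.861 CPM per kb over the 15 libraries, under the 0.988 of control replicate 1. The medians of the other families were 18.4 to 68.0 CPM per kb. Mettl3 RNA averaged 19.4 CPM ± 3.67 (SD, n = 5) in control and 13.7 CPM ± 1.47 in Mettl3 KO libraries (edgeR adjusted p = 0.0545), and Mettl14 RNA 69.0 CPM ± 11.7 in control and 61.3 CPM ± 12.4 in Mettl14 KO libraries (adjusted p = 0.735). Mettl14 RNA was at 54.3 CPM ± 16.2 in Mettl3 KO libraries (edgeR adjusted p = 0.141 against control). Mettl3 RNA was at 17.1 CPM ± 1.85 in those of Mettl14 KO (edgeR adjusted p = 0.591). Of the keratins and adhesion molecules of colon epithelium, Krt20 was at 29.3 to 213 CPM, while Epcam (0.35 to 6.12 CPM) and Krt19 (0.083 to 4.73 CPM) were near 0 in some libraries.

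Members share long stretches of sequence, which limits the reads that can be assigned to each. A stretch of 75 bases, the read length, was called countable if no other annotated gene holds it and no other gene model overlaps it. By this measure the median member was 52.6% countable, 13 members were under 10% and 6 had no countable stretch. The family medians were 99.3% for H1, 75.4% for H4, 57.9% for H2B, 41.0% for H3 and 13.9% for H2A. Hist1h2ao, an H2A gene, shares 93.1% of its stretches with Hist1h2ap. In addition, 17 of the 18 H2A genes are overlapped by a gene model of the miRNA class. In all, 24 members overlap another gene model.

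No read was counted in any of the 15 libraries for 5 members, Hist2h2aa1, Hist2h2aa2, Hist2h2bb, Hist2h3b and Hist2h3c1, and none of the 5 has a countable stretch. The antisense model Gm20633, which overlaps Hist2h2aa1, held 576 reads over the 15 libraries, and Gm20632, which overlaps Hist2h2aa2, held 493. Whether counting used the strand is not given in the sources used here, so reads of a member and of an antisense model cannot be told apart. The RNA level of these 5 genes was not measurable from the counts.

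The authors' deposited table of fold changes also lists a mean normalized count per gene, and for many members it is far above what the deposited counts give. In the authors' deposited table for Mettl3 KO against control, the means of the 18 H2A members sum to 7959, against 438 from the deposited counts of the same 10 libraries, a ratio of 18.2. The ratio of sums between the authors' deposited table and the counts was 2.12 for H3, 1.99 for 16 listed H2B members, 1.43 for H4 and 1.03 for H1. Hist1h2ao had a mean of 555 in the authors' deposited table and 1.33 in the counts, Hist1h2ad 423 and 2.36, and Hist2h2aa1 731 and 0. Members with few near-copies had nearly equal values, with Hist1h4d at 1974 in the authors' deposited table and 1916 in the counts, and Hist1h1b at 969 and 1063. Over 11850 genes with a mean of at least 50 the median ratio was 0.924 and the 99th percentile 3.30, and 27 of the 65 members listed in the authors' deposited table, members with a lower mean included, were above that percentile. The ratio was higher where the countable share was lower (Spearman rho -0.77 across 60 members, which share sequence and are not independent). In the authors' deposited table for Mettl14 KO the H2A ratio of sums was 17.9 and rho was again -0.77. Which counts lie behind the authors' deposited table is not given in the sources used here.

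**Figure D1:**
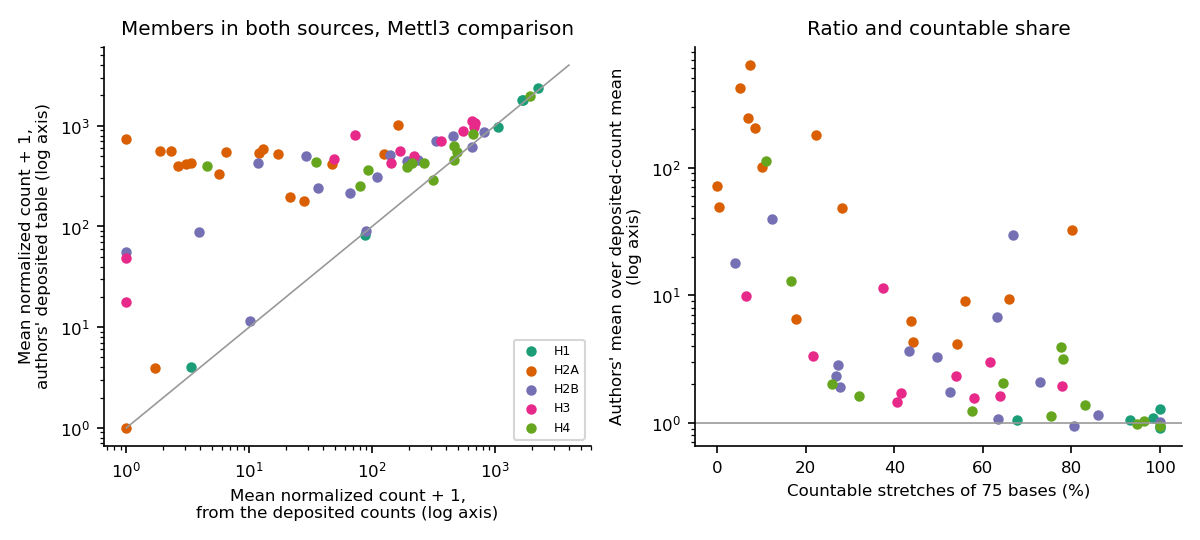
Left, mean normalized count plus 1 of 65 members in the authors' deposited table for Mettl3 KO against control (y) and from the deposited counts of the same 10 libraries (x), both on log axes, coloured by family, with the line of equality. Right, the ratio of the means (log axis) against the percent of 75-base stretches that are countable, for 60 members with reads; H2A genes sit at the upper left, H1 genes on the line.

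Levels are given as CPM, the counts scaled to the reads on genes of each library with TMM factors, and, to compare genes, as CPM per kb of exon. Per length, Hist1h4d (H4) was the highest of the 67, at a mean of 184 CPM per kb over the 15 libraries, followed by Hist1h2bb (H2B) at 164, Hist1h1b (H1) at 152 and Hist1h4h (H4) at 146. The SD over the libraries was 54.5 to 62.8 CPM per kb for these 4. It holds variation that the genes share across libraries, so it does not measure how firm their order is, which was not tested. Next came Hist1h4f (H4) at 129 CPM per kb, Hist1h1e, an H1 linker histone, at 124 and Hist1h1c (H1) at 113. The core histone genes Hist1h3b, Hist1h4k and Hist1h3c followed at 109, 92.4 and 89.9. Among H2A genes, Hist1h2ak led at 33.9 and Hist2h2ac at 33.1 CPM per kb, in a family with a low countable share. The family medians were 68.0 CPM per kb for H1, 41.1 for H4, 37.2 for H3, 18.4 for H2B and 0.861 for H2A. Counted levels were higher where the countable share was higher (Spearman rho 0.47 over 67 members, which share sequence), and the order of families is that of counted reads. The 10 members with the most reads held 60.7% of all member reads.

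**Figure D2:**
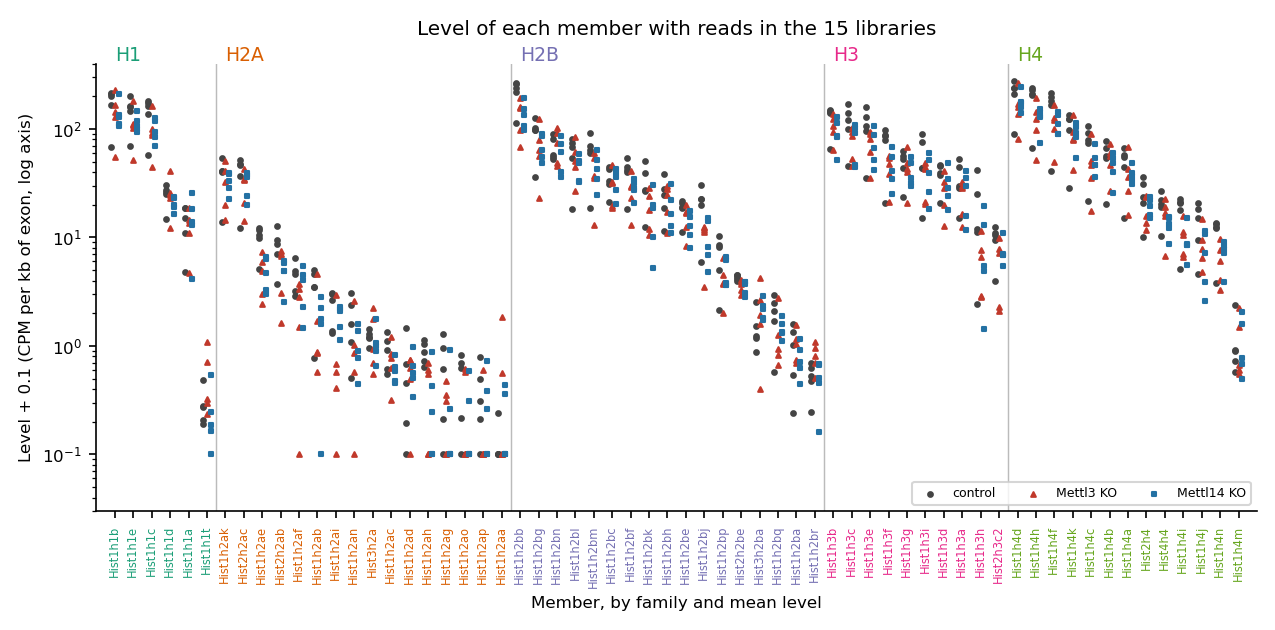
Level plus 0.1 in CPM per kb of exon (log axis) of the 62 members with reads, by family and mean level, with 1 symbol per library: circles control, triangles Mettl3 KO, squares Mettl14 KO. Each family spans more than a 10-fold range, most H2A genes lie below 10 CPM per kb, and the 3 groups overlap.

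Within a family, the members differed in how much they carried. Hist1h1e (chr13:23620629-23622558, - strand) had 134, 385, 314, 283 and 308 CPM in control replicates 1 to 5. It had 98.9, 216, 210, 196 and 350 CPM in Mettl3 KO libraries and 208, 191, 285, 229 and 181 CPM in those of Mettl14 KO. Its lowest values were replicate 1 of control and of Mettl3 KO, and the 3 groups overlapped. Hist1h1b (chr13:21779883-21780625), the H1.5 gene, had 50.5 CPM in control replicate 1 and 122 to 160 CPM in the other controls. It ranged from 40.6 to 171 CPM in Mettl3 KO libraries and from 78.8 to 156 CPM in those of Mettl14 KO. The testis linker histone Hist1h1t had at most 0.91 CPM.

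Hist1h4d (chr13:23581598-23582735) had 103, 317, 272, 239 and 269 CPM in control libraries. In Mettl3 KO libraries it had 91.8, 182, 157, 193 and 302 CPM and in Mettl14 KO libraries 180, 159, 276, 200 and 199 CPM. Again replicate 1 of control and of Mettl3 KO was lowest, and all groups overlapped. Hist1h4h (chr13:23531050-23531519) showed a gap among the controls, with 31.2 CPM in replicate 1 and 96.7 to 111 CPM in the other 4. Its Mettl3 KO libraries ranged from 24.5 to 90.02 CPM and its Mettl14 KO libraries from 34.6 to 72.2 CPM, all below those 4 controls. Hist1h3b (chr13:23752267-23752886) had 40.4 CPM in control replicate 1 and 86.3 to 93.3 CPM in the other controls, against 39.5 to 84.7 CPM in Mettl3 KO libraries and 32.3 to 79.8 CPM in those of Mettl14 KO. Hist1h3c (chr13:23744973-23745602) ranged from 28.7 to 108 CPM in control, 28.8 to 64.5 CPM in Mettl3 KO libraries and 27.8 to 67.9 CPM in those of Mettl14 KO.

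Hist1h2bb (chr13:23746734-23747241), whose stem-loop and promoter are printed above, had 57.1, 133, 135, 111 and 122 CPM in control replicates 1 to 5. It had 34.7, 81.6, 78.9, 49.7 and 97.3 CPM in Mettl3 KO libraries and 77.8, 49.5, 68.7, 98.5 and 54.1 CPM in those of Mettl14 KO. All 10 knockout libraries were below the 4 higher controls, and control replicate 1 lay among them. Hist1h2bg had 22.4 to 77.8 CPM in control, 14.3 to 76.3 CPM in Mettl3 KO libraries and 29.7 to 55.5 CPM in those of Mettl14 KO. Of the H2A genes, Hist2h2ac (chr3:96220361-96220880) had 6.37 CPM in control replicate 1 and 19.1 to 27.1 CPM in the other controls, 7.26 to 22.1 CPM in Mettl3 KO libraries and 10.3 to 20.3 CPM in those of Mettl14 KO. Hist1h2ak ranged from 5.41 to 21.4 CPM in control, 5.67 to 20.0 CPM in Mettl3 KO libraries and 8.89 to 15.4 CPM in those of Mettl14 KO.

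Summed over the 67 members, control libraries had 1080, 2826, 2774, 2659 and 3054 CPM. Mettl3 KO libraries had 914, 2056, 1874, 1687 and 2858 CPM, and Mettl14 KO libraries 1908, 1355, 2189, 2237 and 1527 CPM. The means were 2479 CPM ± 795 (SD, n = 5) in control, 1878 CPM ± 699 in Mettl3 KO libraries and 1843 CPM ± 393 in those of Mettl14 KO, and the groups overlapped. All 5 Mettl14 KO libraries and 4 of 5 Mettl3 KO libraries were below the 4 higher controls, and control replicate 1 was below all but 1 knockout library. The log2 ratio of the group means was -0.40 for Mettl3 KO and -0.43 for Mettl14 KO against control and 0.03 between the knockouts. Without control replicate 1 these 2 knockout values were -0.59 and -0.62, and without replicate 1 of both control and Mettl3 KO the Mettl3 KO value was -0.42.

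**Figure D3:**
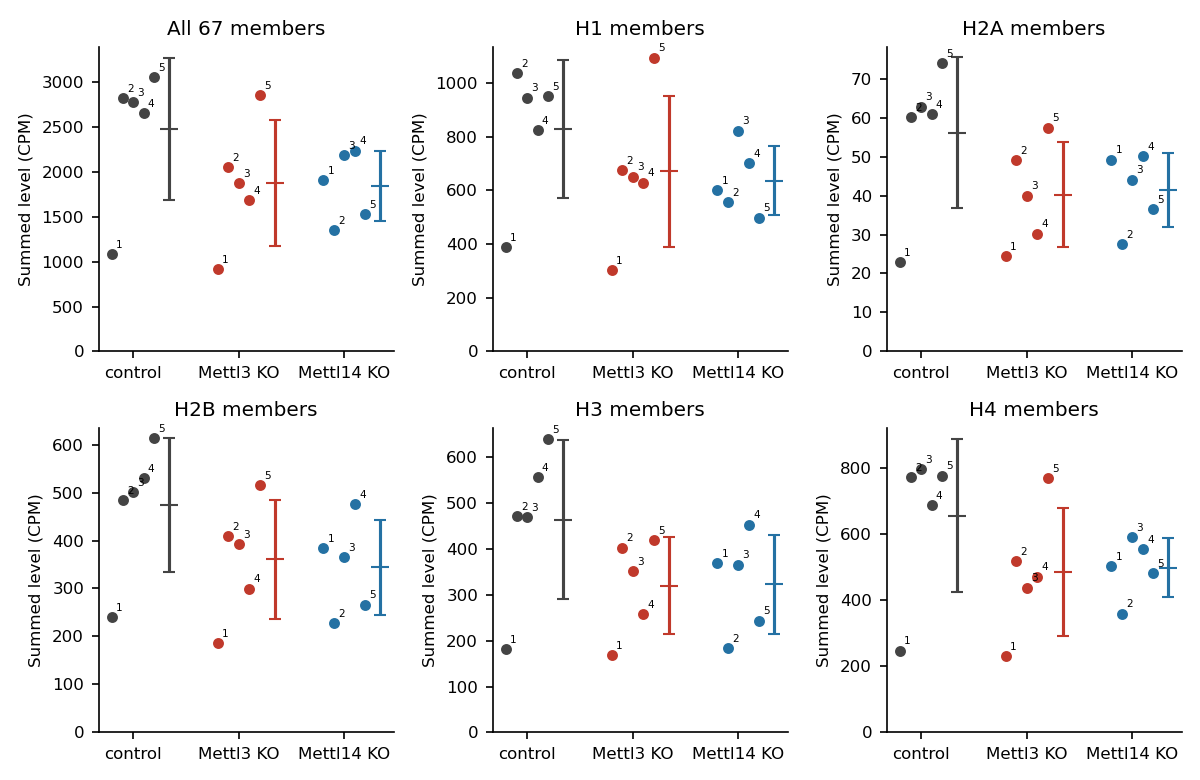
Summed level in CPM of all 67 members and of each family in each library (points, numbered by replicate), with the mean and SD of the 5 libraries of each group as a bar beside them. Replicate 1 of control and of Mettl3 KO is lowest of its group in all 6 panels, and the other controls lie above most knockout libraries.

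The share of each family in the sum overlapped between the groups. H1 genes made up 33.7% ± 2.63 (SD, n = 5) of the summed level in control, 35.3% ± 2.41 in Mettl3 KO libraries and 34.8% ± 4.31 in those of Mettl14 KO. H4 genes made up 26.1% ± 2.16, 25.7% ± 1.76 and 27.3% ± 2.55, and H2A genes 2.24% ± 0.124, 2.20% ± 0.343 and 2.25% ± 0.242, in the same order. The ratio of the H2B to the H4 sum was 0.757 ± 0.141 in control, 0.760 ± 0.106 in Mettl3 KO libraries and 0.685 ± 0.123 in those of Mettl14 KO. On the log2 scale the family sums were correlated over the 15 libraries with Pearson r between 0.86 and 0.98 for the 10 pairs, a description of libraries that also share their depth and background.

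The RNAs of these genes lack a poly(A) tail, and the molecule label names poly(A) RNA while the protocol describes both ribosomal depletion and poly(A) selection, so the summed level was set beside the share of reads outside genes. The sum was lower in libraries with more reads outside genes, with Pearson r = -0.81 and Spearman rho = -0.81 over 15 libraries. Leaving out control replicate 1 and Mettl3 KO replicate 4, the 2 libraries farthest from the median share, gave r = -0.80. Both quantities come from the same libraries and share their depth and background, and each group of 5 has too few libraries for a value of its own. By family r was -0.71 for H1, -0.89 for H2A, -0.78 for H2B, -0.82 for H3 and -0.82 for H4, and 56 of the 62 members with reads had a negative rho (median -0.70). The sum had r = -0.75 with the level of the receptor genes.

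The same direction was seen outside the histones. Summed lists of polyadenylated messages also had negative correlations with the share of reads outside genes: r = -0.86 for 27 genes of DNA replication and S phase, -0.87 for 11 histone variants made outside S phase, -0.91 for 16 factors of histone RNA 3′ end processing and -0.77 for 10 histone chaperones. The summed histone level and the summed replication list had r = 0.85 with each other. The ratio of members to the replication list had r = -0.26 with the share outside genes, and r = -0.52 without its 2 farthest libraries. That ratio was 0.971 ± 0.152 (SD, n = 5) in control, 0.975 ± 0.172 in Mettl3 KO libraries and 0.798 ± 0.136 in those of Mettl14 KO, ranges that overlap. In control replicate 1, where the histone sum was 1080 CPM, the replication list was also low, at 1483 CPM against 2552 to 3045 CPM in the other controls. The part of background reads in these values was not tested.

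**Figure D4:**
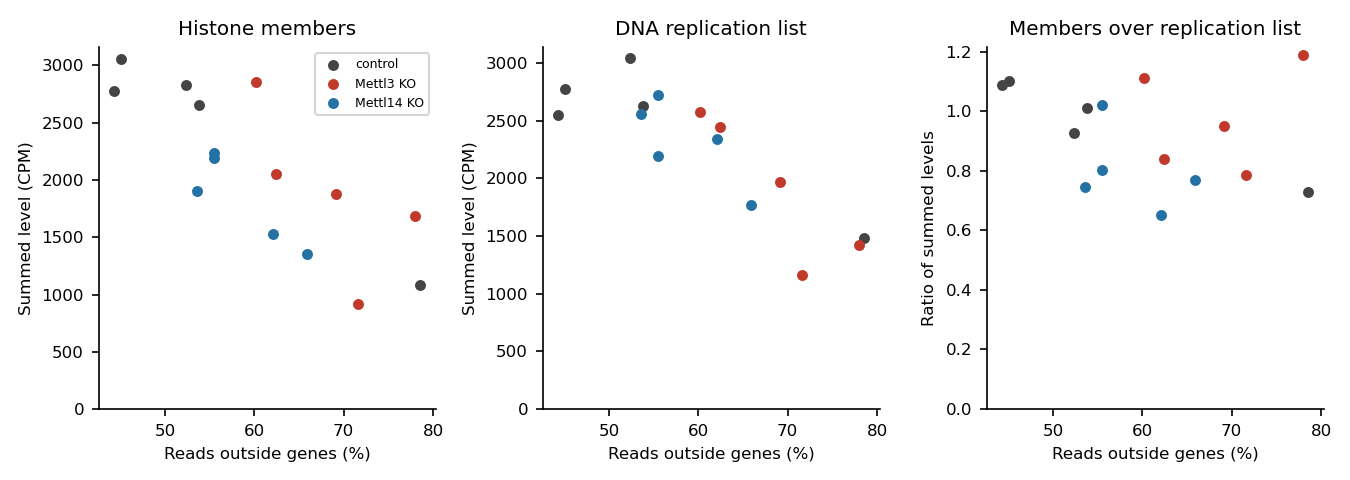
Summed level in CPM of the histone members (left) and of the 27-gene DNA replication list (middle), and the ratio of the 2 sums (right), against the percent of uniquely aligned reads outside genes, 1 point per library. Both sums fall from left to right (r = -0.81 and -0.86), the ratio less (r = -0.26).

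In Mettl3 KO against control tumors, histone messages were counted lower for nearly every tested gene, by an amount within the spread between libraries. No member of the 50 with enough reads passed an adjusted p of 0.05 in edgeR's quasi-likelihood test, where 266 of 21427 genes did (1.24%, and 0.835% in the lower direction). DESeq2 called 3 members lower, Hist1h2bb, Hist1h3f and Hist1h4i, with 31.1% of the 10277 genes that had an adjusted p there lower. A fit with the replicate number as a block called 13, with 19.2% of genes lower. The other 17 members were too low to test. At an unadjusted p under 0.05, 8 members were lower and 0 higher, against 27.0% of all tested genes lower and 5.26% higher, so the members' share was below the background. The log2 fold change was negative for 48 of 50 members, with a median of -0.56, against 55.1% of all genes and a median of -0.14. Genes at the members' middle levels (7087 genes within the interquartile range of the members' mean level) had 81.2% negative values and a median of -0.38. The 2 members with positive values were Hist1h2br and Hist1h2bn, named after their values were seen. Negative values were found in every family. The medians were -0.31 for 5 H1, -0.62 for 8 H2A, -0.46 for 15 H2B, -0.63 for 10 H3 and -0.55 for 12 H4 genes. In the authors' deposited table the medians were -0.17 for H1, -0.12 for H2A, -0.32 for H2B, -0.34 for H3 and -0.41 for H4. The H2A value there covers 16 genes, and the median of all genes there was -0.25. The low place of H2A in the counts was thus not seen in that table.

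The member with the smallest p was Hist1h2ae, an H2A gene at chr13:23570517-23571220. It had 3.50, 8.48, 6.91, 7.37 and 8.24 CPM in control and 2.04, 4.13, 1.64, 3.36 and 5.11 CPM in Mettl3 KO libraries, so control replicate 1 alone overlapped the knockouts. On the log2 scale it differed by -1.13 ± 0.35 (SE) with an edgeR adjusted p of 0.0636. Hist1h2bb followed at -0.76 ± 0.27 (adjusted p = 0.0865 in edgeR) and Hist1h3h at -1.64 ± 0.63 (adjusted p = 0.103). Hist1h3h, an H3 gene with 6.53% countable stretches, had 0.96 to 17.0 CPM in control and 1.12 to 4.63 CPM in Mettl3 KO libraries, and its reads can be split among near-identical copies. Hist1h1e was at -0.46 ± 0.30, Hist1h4d at -0.42 ± 0.31 and Hist1h3b at -0.35 ± 0.23, none past the test. In the authors' deposited table for this comparison, 0 of 59 members with an adjusted p were under 0.05, where 8.18% of 16160 genes were lower at that threshold, and the median log2 fold change of the members was -0.28 against -0.25 for all genes. Hist1h2ae was at -0.23 in the authors' deposited table.

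The count changed with control replicate 1. Without it, 13 members were lower at an adjusted p under 0.05 and 0 higher, with 15.4% of 22535 genes lower and 8162 genes higher. The 13 were Hist1h3f, Hist1h3h, Hist1h2ae, Hist1h2bj, Hist1h4i, Hist1h2bb, Hist1h3c, Hist1h4n, Hist1h2bk, Hist1h4h, Hist1h3e, Hist1h3i and Hist1h4f, and none was an H1 gene. Without replicate 1 of both control and Mettl3 KO, an alternative added after the data were seen, 7 members were lower, against 9.8% of genes. With the share of reads outside genes as a covariate, 15 of 50 members were negative and the median became 0.11, against -0.09 over all genes, and no member passed. After subtracting the receptor genes' reads per kb, the median was -0.18, with 33 of 48 members negative. The sign of the members' median changed when the share of reads outside genes entered the fit.

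In Mettl14 KO against control tumors the same direction was seen, again with no member past the test. No member of 52 passed the adjusted threshold in edgeR, nor did any of 21555 genes (0.0%). At an unadjusted p under 0.05, 14 of 52 members were lower and 0 higher, where 6.6% of all tested genes were lower and 4.74% higher. DESeq2 called 0 members as well, with 0.424% of the 16035 genes that had an adjusted p there lower. The fit with the block also called 0 members, with 0.00928% of genes lower. The log2 fold change was negative for 50 of 52 members, with a median of -0.48, against 60.8% and -0.09 for all genes and 65.6% and -0.10 for 7193 genes at the members' middle levels. Both comparisons share the 5 control libraries, so their values are given side by side and their likeness is not a second observation. By family the medians were -0.35 for H1, -0.36 for H2A, -0.48 for H2B, -0.50 for H3 and -0.56 for H4.

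Hist1h2ae again had the smallest p, with 4.34, 2.05, 2.24, 4.55 and 3.23 CPM in the Mettl14 KO libraries and a value of -1.10 ± 0.29 (SE) on the log2 scale (edgeR adjusted p = 0.220). Hist1h2bb was at -0.71 ± 0.22 (edgeR adjusted p = 0.261) and Hist4h4 at -0.65 ± 0.21 (adjusted p = 0.283). Hist4h4, the single H4 gene on chr6:136801553-136804415, had 29.3, 63.6, 76.1, 57.4 and 54.9 CPM in control and 43.3, 24.6, 34.3, 43.7 and 38.0 CPM in Mettl14 KO libraries. Control replicate 1 was the only control within the range of the knockouts. In Mettl3 KO libraries Hist4h4 had 19.0 to 64.8 CPM, a range that covers most of the controls. In the authors' deposited table for Mettl14 KO, 0 of 61 members were under 0.05, where 0.949% of 16861 genes were lower, and Hist4h4 had the smallest adjusted p (0.0998) at a log2 fold change of -0.62. The median of the members in the authors' deposited table was -0.39, against -0.09 for all genes.

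Without control replicate 1, 12 of 52 members were lower in Mettl14 KO at an adjusted p under 0.05 in edgeR, where 2.0% of 21687 genes were lower. The median of the members was then -0.64, against -0.01 over all genes. The 12 were Hist1h4i, Hist1h2ae, Hist1h2bb, Hist1h4f, Hist1h4h, Hist4h4, Hist1h3f, Hist1h1c, Hist1h2bj, Hist1h4c, Hist1h2bf and Hist1h1e. Their log2 fold changes lay between -1.27 for Hist1h2bj and -0.56 for Hist1h1e. Of these, 7 were also among the 13 in Mettl3 KO without that library, and the 2 counts share their 4 controls. With the share of reads outside genes as a covariate the median was -0.24, against -0.01 over all genes, and 48 of 52 members were negative, with no member past the threshold.

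Between Mettl3 KO and Mettl14 KO tumors no member passed the test. No member of 51 passed in edgeR, nor did any of 24566 genes (0.0%). DESeq2 called 0 members, with 0.0573% of the 27907 genes that had an adjusted p there lower. In edgeR 0 members had an unadjusted p under 0.05, where 8.04% of genes were lower and 4.79% higher. The log2 fold change was negative for 26 of 51 members with a median of -0.005, against a median of -0.01 over all genes and -0.24 over genes at the members' middle levels. Hist1h1e was at -0.02 ± 0.29 (SE), Hist1h2bb at -0.02 ± 0.28 and Hist1h4h at -0.04 ± 0.33. With the share of reads outside genes as a covariate, 49 of 51 members had positive values for Mettl3 KO over Mettl14 KO, with a median of 0.51, against a median of -0.06 over all genes, of which 59.8% were negative. No member and no other gene passed the test in that fit. At an unadjusted edgeR p under 0.05 it had 21 of 51 members higher and 0 lower, against 1119 of 24566 genes in either direction. After background subtraction 43 of 50 members were positive, with a median of 0.31 against 0.02 over all genes, and again no gene passed.

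**Figure D5:**
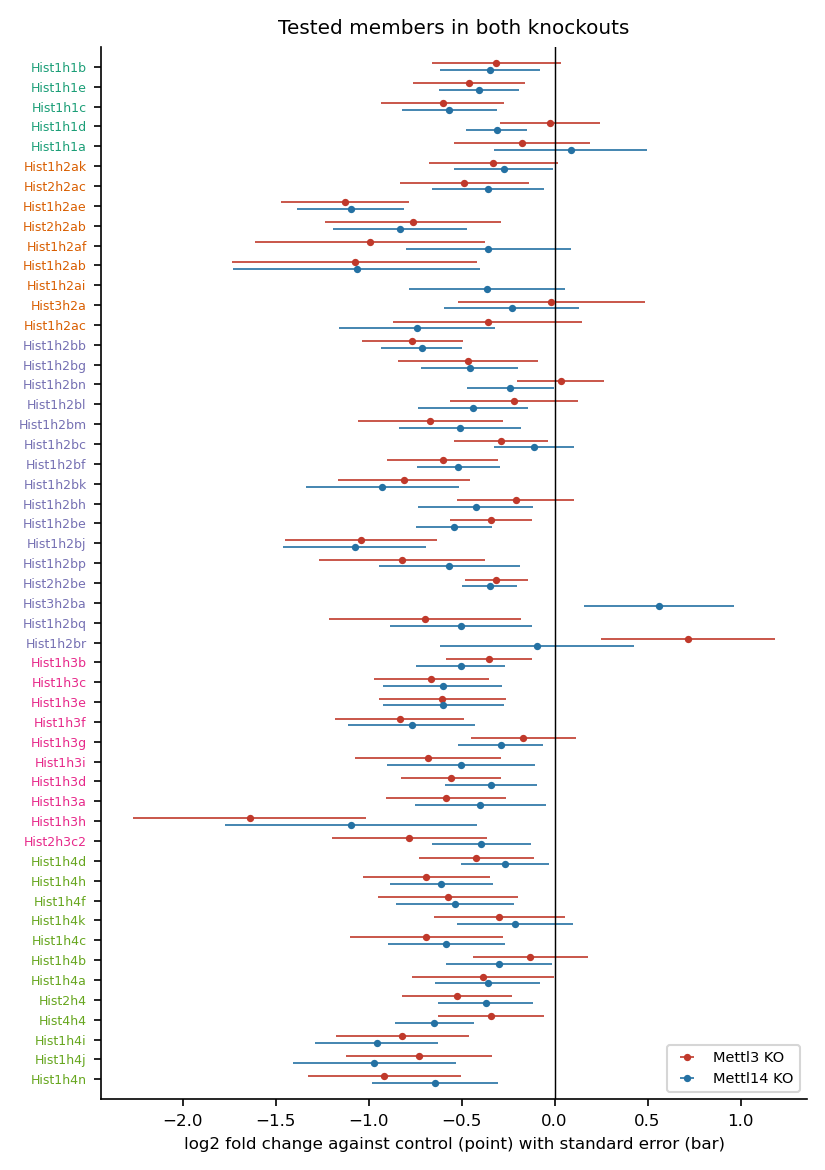
log2 fold change against control (points) with its standard error (bars) of each tested member in Mettl3 KO (red) and Mettl14 KO (blue), ordered by family and level. Most points lie left of 0, and no member passes an adjusted p of 0.05 in either comparison.

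Members known to give polyadenylated RNA also had negative values. Their fold changes had a median of -0.31 in Mettl3 KO and -0.35 in Mettl14 KO, with 5 of 5 negative and 0 called in both. Of all tested genes, 1.24% were called in Mettl3 KO and 0.0% in Mettl14 KO. Genes at the middle levels of all members, not matched to these 5, were 81.2% negative in Mettl3 KO, with a median of -0.38. In Mettl14 KO 4715 of 7193 such genes were negative, with a median of -0.10. The Mettl3 KO median of the 5 was thus no lower than that background. Hist1h1c, the H1.2 gene and the most abundant of the 5 members, had 89.3, 284, 272, 215 and 251 CPM in control. It had 69.2 to 255 CPM in Mettl3 KO libraries and 109 to 197 CPM in those of Mettl14 KO. Hist2h2be, which has 100% countable stretches, was the steadiest of the 5. It was at 11.0 CPM ± 0.610 (SD, n = 5) in control, 9.10 ± 1.21 in Mettl3 KO libraries and 8.87 ± 1.29 in those of Mettl14 KO. In contrast to most members, its control replicate 1 (10.5 CPM) lay with the other controls (10.2 to 11.6 CPM). Its log2 fold change was -0.31 ± 0.17 (SE) in Mettl3 KO and -0.35 ± 0.15 in Mettl14 KO, with edgeR adjusted p of 0.208 and 0.403. Hist1h2bc had 24.4 to 51.6 CPM in control, 21.5 to 53.9 CPM in Mettl3 KO libraries and 23.4 to 49.5 CPM in those of Mettl14 KO. Hist1h2ac and Hist3h2a stayed under 5 CPM, and the sign of Hist3h2a in Mettl3 KO (-0.02) turned under several settings.

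Members whose annotated exons end within 100 bases of the stem-loop and those whose exons run past it had the following values. The first class had a median log2 fold change of -0.67 in Mettl3 KO (15 tested of 22) and -0.57 in Mettl14 KO (15 tested), the second -0.52 (19 tested of 22) and -0.50 (20 tested). Their sums had r = -0.85 and -0.78 with the share of reads outside genes. The germ-cell members Hist1h1t, Hist1h2aa and Hist1h2ba, used in testis, summed to 0.25 to 0.70 CPM in control, 0.36 to 1.81 CPM in Mettl3 KO libraries and 0.29 to 0.71 CPM in those of Mettl14 KO. Hist1h2aa had 7 reads over all 15 libraries, 3 of them in Mettl3 KO replicate 1. Over the 15 libraries, Hist1h1t averaged 0.26, Hist1h2aa 0.20 and Hist1h2ba 0.82 CPM per kb. The receptor genes averaged 0.264 RPKM in control, 0.523 in Mettl3 KO libraries and 0.215 in those of Mettl14 KO. Hist1h1t and Hist1h2aa thus lie near that background. Hist1h2ba was above each of these group means, with 1 to 7 reads per library and 66.8% countable stretches. No germ-cell value is read as a difference between groups.

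No gene of 4 lists that serve the histones passed the test in either knockout. Their counts stand beside a background in which 81.2% of genes at the members' middle levels were negative in Mettl3 KO (median -0.38) and 65.6% in Mettl14 KO (median -0.10). That background follows the levels of the histone members and was not matched to those of the 4 lists. Over all tested genes the shares were 55.1% (median -0.14) and 60.8% (median -0.09). Of 16 factors of histone RNA 3′ end processing, 15 were negative in Mettl3 KO (median -0.48, 0 called), with Fip1l1 at -0.54 ± 0.15 (SE, edgeR adjusted p = 0.0535) and Ncbp1, the large cap-binding subunit, at -0.72 ± 0.20 (adjusted p = 0.0539). In Mettl14 KO 14 of 16 were negative with a median of -0.07, with Npat, the activator of the clusters, at -0.29 ± 0.18 (edgeR adjusted p = 0.618) and Fip1l1 at -0.21 ± 0.16. Of 27 replication genes, 26 were negative in Mettl3 KO (median -0.39) and 19 in Mettl14 KO (median -0.10), with 0 called. Cyclin E2 (Ccne2) was at -0.67 ± 0.22 and the origin recognition gene Orc1 at -0.55 ± 0.19 in Mettl3 KO (edgeR adjusted p = 0.0692 and 0.0792). Of 10 chaperones, which carry histones to DNA, 9 were negative in Mettl3 KO (median -0.47) and 7 in Mettl14 KO (median -0.22), with Rbbp4 at -0.75 ± 0.23 and Nasp at -0.60 ± 0.21 in Mettl3 KO (edgeR adjusted p = 0.0631 and 0.0826). In Mettl14 KO, Daxx was at 0.51 ± 0.19 and Asf1a at -0.40 ± 0.20 (edgeR adjusted p = 0.351 and 0.473). Of 10 tested variants, 8 were negative in Mettl3 KO (median -0.30), with H3f3a, an H3.3 gene, at -0.75 ± 0.26, and 7 in Mettl14 KO (median -0.16).

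Markers of other cell types are given beside the histones. All 9 T cell markers had positive values in both knockouts (log2 fold changes of 1.23 to 2.15 in Mettl3 KO and 1.14 to 2.23 in Mettl14 KO, with 0 called), with summed levels of 13.1 to 49.3 CPM in control, 57.9 to 192 CPM in Mettl3 KO libraries and 33.6 to 290 CPM in those of Mettl14 KO. All 5 erythroid markers were negative, and 3 of them, Hbb-bs, Hba-a1 and Hbb-bt, fell in Mettl3 KO (edgeR adjusted p = 0.0349, 0.0463 and 0.0485). Krt20, the most abundant keratin, fell in Mettl3 KO by 1.76 on the log2 scale (edgeR adjusted p = 0.0217). It was 1 of 2 negative values among the 6 markers of colon epithelium, whose median in Mettl3 KO was 0.46 with a highest value of 1.22, while in Mettl14 KO 5 of the 6 were negative (median -0.50, 0 called). The 7 macrophage markers summed to 677 to 1240 CPM in control, 608 to 1478 CPM in Mettl3 KO libraries and 929 to 2547 CPM in those of Mettl14 KO, and the 6 fibroblast markers to 1321 to 3162, 1196 to 4150 and 1831 to 7403 CPM. No marker was at 0 in any library, and the part of cell composition in the histone values was not tested.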

How the data were processed

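RNA of CT26 tumors was measured in 15 libraries. The authors' deposited tables hold raw read counts per gene; per the submitters' processing notes, reads were trimmed with cutadapt 1.18, aligned to mm10 with HISAT2 2.1.0 and counted with HTSeq 0.11.2. The protocol names single 75-nt reads. The sources used here give neither the annotation release nor the strand setting. The authors' deposited tables of log2 fold changes, p-values and mean normalized counts carry DESeq2 column names, per the file headers, and were used only where named. HTSeq summary lines, 56.8% to 86.2% of each column, were kept out of library sizes. The 5 control columns occur in both count tables and are identical.

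Levels are CPM after TMM scaling over 15 libraries. Tests used edgeR 4.0.16 (R 4.3.3) with quasi-likelihood, filterByExpr at a minimum count of 10, on the 10 libraries compared, or all 15 for Mettl3 KO against Mettl14 KO, with Benjamini-Hochberg adjustment over all genes tested and a threshold of 0.05. The scripts were tested on simulated data. Alternatives were RLE scaling, library totals, 2 filters, DESeq2 1.42.0, the share of reads outside genes as covariate, background subtraction, a replicate block and leaving out each library. Replicates of a group differed well beyond sampling noise (smallest chi-square per gene 9.1 over 30 pairs).

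Genes were named by rule: the 2 members highest per kb in each family, any called member or else the 3 with the smallest p in each knockout, and the polyadenylated and germ-cell members; for other lists, called genes or else the 2 with the smallest p. The members and lists were chosen with earlier results of these data known. Of the counted IDs, 54723 matched a GENCODE M21 entry. The main fits did not pair libraries by replicate number.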

Additional observations from a re-analysis of the deposited data

Results flagged for a closer look

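A library is given here where its gap to the nearest of the other 4 exceeds 0.71 of the range of its group of 5. Chance does this for about 1 in 20 groups, per value looked at and not over the whole search. That rate does not hold for Hist1h2aa, where a single read among zeros passes the limit. Most of the values given are from the same library. Control replicate 1 had a summed histone level of 1080 CPM against 2659 to 3054 CPM in the other controls. Its H4 sum was 248 CPM against 687 to 796 CPM, and its H2A sum 22.9 CPM against 60.2 to 73.9 CPM. Single genes showed the same gap: Hist1h3b had 40.4 CPM against 86.3 to 93.3 CPM and Hist1h4h 31.2 CPM against 96.7 to 111 CPM. The same library had 78.6% of its reads outside genes against 44.3% to 53.8%, and an RPKM of 0.988 on the receptor genes against 0.0367 to 0.130. Mettl14 KO replicate 3 had 156 CPM of Hist1h1b against 78.8 to 99.3 CPM in the other 4. The testis gene Hist1h2aa, with 7 reads in all, had 0.68 CPM in Mettl3 KO replicate 1, against at most 0.18 CPM in the others of that group, and 0.055 CPM in control replicate 4, against 0 in the other controls; the second value is a single read.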

How the results depend on the processing

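Of 701 alternative values for the 36 fold changes of named members, 644 kept their direction and side of the threshold, 22 passed it in addition and 35 changed sign. No member was called in Mettl3 KO against Mettl14 KO under any setting. In Mettl3 KO against control, 3 members were lower in DESeq2 (31.1% of genes with an adjusted p) and 13 with the replicate block (19.2%). Without replicate 1 of both control and Mettl3 KO, 7 members were lower (9.8% of genes). Leaving out 1 library gave 0 to 13 members in Mettl3 KO, 0 to 12 in Mettl14 KO and 0 to 0 between the knockouts. The highest counts were those without control replicate 1, where 15.4% of genes were lower in Mettl3 KO and 2.0% in Mettl14 KO. Of 15 correlations of same-numbered deviations, 4 were above 0.1 and the lowest was -0.72. Between control and Mettl3 KO, replicate 1 had 0.61 and replicate 5 had 0.56. With 5 libraries per group these values cannot decide whether the replicate numbers pair the libraries. The replicate block raised the genes called in Mettl3 KO against control from 266 to 6002, and it called 0 members in the other 2 comparisons. Library totals in place of TMM moved the median of all genes from -0.09 to 0.07 in Mettl14 KO (60.8% to 39.7% negative), with the members at -0.30 and 48 of 52 negative, and from -0.14 to 0.02 in Mettl3 KO, with the members at -0.35. The log2 ratio of summed levels ranged over single left-out libraries from -0.60 to -0.23 for Mettl3 KO, -0.62 to -0.33 for Mettl14 KO and -0.17 to 0.20 between the knockouts, and r with the share of reads outside genes from -0.85 to -0.77. Low counts kept 17 members out of the Mettl3 KO test and 15 out of the Mettl14 KO test.

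The sign changes were in Mettl3 KO unless stated, and the cause was not tested. With the share of reads outside genes as a covariate, Hist1h1b was at 0.38, Hist1h1e 0.061, Hist1h2ak 0.48, Hist2h2ac 0.37, Hist1h2bg 0.17, Hist1h3b 0.11, Hist1h3c 0.042, Hist1h4d 0.14, Hist1h4h 0.083, Hist4h4 0.12, Hist1h1c 0.030 and Hist1h2bc 0.12. After background subtraction, Hist1h1b was at 0.091, Hist1h2ak 0.067, Hist1h3b 0.054, Hist4h4 0.026 and Hist1h2bc 0.083. Hist3h2a was at 0.074 with RLE, 0.014 with 15 libraries in the fit, 0.10 with library totals and 0.083 with a mean of at least 1 CPM. Library totals put Hist1h2bc at 0.050 in Mettl14 KO. Over single left-out libraries Hist3h2a ranged from -0.21 to 0.28, Hist1h1b from -0.45 to 0.074, Hist1h2ak from -0.47 to 0.029, Hist4h4 from -0.44 to 0.021, Hist1h2ac from -0.52 to 0.0082, Hist1h2bc from -0.41 to 0.0048 and, in Mettl14 KO, Hist1h2bc from -0.21 to 0.014.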
